A study of Mus musculus with 12 samples.

Results

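Creatine is made from arginine, glycine and a methyl group, enters muscle through a transporter and is charged with phosphate by creatine kinases, and 6 genes of this system were described here across the series: the synthesis genes Gatm and Gamt, the transporter gene Slc6a8, and the creatine kinase genes Ckm, Ckb and Ckmt2. They are a listed set that was chosen by function and with earlier results of these data known, among them the higher Gamt values of ERRα-null muscle after exercise. Each gene was measured by the probeset that names only that gene and, where there were several, was selected on having the highest mean over the 12 arrays. All 6 were found among the 22180 genes with such a probeset. All 6 also lay among the 13308 genes that were bright enough to be tested, which are those above the lowest 40% by mean.

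The series used Affymetrix Mouse Gene 2.0 ST arrays on RNA of gastrocnemius, a mostly fast-twitch calf muscle, from FVB mice labelled male and aged 2 to 3 months. The 4 groups had 3 arrays each: ERRα-null mice taken 2 h after an exhausting treadmill run, wild-type mice at the same time after running, sedentary ERRα-null mice, and sedentary wild-type mice. ERRα, the product of Esrra, is a nuclear receptor with no known natural ligand that promotes expression of mitochondrial genes, and the labels name no tissue to which its loss was restricted. Levels are log2 values, so a difference of 1 is a change of one doubling, and they are relative to the bulk of the transcripts on an array.

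Phosphocreatine is the fastest reserve for remaking ATP when a fibre starts to contract. Creatine is synthesised mainly between kidney, where AGAT (Gatm) forms guanidinoacetate, and liver, where GAMT methylates it, although muscle expresses GAMT as well. Muscle takes creatine up from blood through the sodium-dependent carrier encoded by Slc6a8. In muscle, Ckm encodes the cytosolic and sarcomeric kinase that remakes ATP beside myosin, Ckmt2 encodes the kinase between the mitochondrial membranes that charges creatine with newly made ATP, and Ckb encodes the cytosolic form of brain, smooth muscle and brown fat.

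Promoter windows are shown for the gene with the clearest genotype difference, Gamt, and for the kinase that lay lower without ERRα, Ckmt2. The windows are RefSeq sequence of build GRCm38.p6 and span bases 250 to 51 before the annotated start, Gamt at chr10:80261063-80261262 and Ckmt2 at chr13:91876936-91877135, both on the minus strand. Capitals mark matches to the GC box, searched as GGGCGG on both strands, which is bound by Sp family factors.
Gamt: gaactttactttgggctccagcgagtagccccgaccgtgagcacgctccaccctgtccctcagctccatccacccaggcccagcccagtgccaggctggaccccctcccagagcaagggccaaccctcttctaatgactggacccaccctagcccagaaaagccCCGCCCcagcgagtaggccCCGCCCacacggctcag
Ckmt2: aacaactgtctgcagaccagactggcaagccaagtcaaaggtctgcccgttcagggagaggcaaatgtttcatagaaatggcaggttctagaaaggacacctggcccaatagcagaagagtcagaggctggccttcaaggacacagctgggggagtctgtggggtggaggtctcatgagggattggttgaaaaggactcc

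The Gamt window held 2 GC boxes and the Ckmt2 window 0, where 24.6% of all 32851 windows of 200 bases hold at least 1. The windows of Gatm, Ckm and Ckb held 0 as well. G and C made up 66% of the Gamt window and 53% of the Ckmt2 window, where the median of all windows is 51.5%. Neither window held the extended ERR element, searched as TNAAGGTCA on both strands, which occurs in 0.938% of windows. Its core half-site AGGTCA, which occurs in 11.4% of windows and is contained in every extended element, was also missing from both, and among the 5 genes with a window (all except Slc6a8) it was found once, in that of Gatm. These counts describe the letters of 200 bases.

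Some facts of the arrays bear on the values below. Esrra ran from 6.58 to 6.85 on exercised ERRα-null arrays against 7.41 to 7.63 on exercised wild-type arrays, and from 6.55 to 6.89 on sedentary ERRα-null arrays against 7.41 to 7.61 on sedentary wild-type arrays, so the genotypes did not overlap. The source-name label gives another exercise state than the title and description do for the sedentary ERRα-null and exercised wild-type arrays, and the titles were followed. Although all mice are labelled male, 3 arrays had a female profile (exercised ERRα-null replicates 2 and 3, exercised wild type replicate 3), with Xist at 7.82 to 7.90 and the Y-linked Eif2s3y at 4.97 to 5.20, against Xist at 3.66 to 4.30 and Eif2s3y at 7.83 to 8.45 on the other 9. The brown fat gene Ucp1 was above a log2 value of 7 on 4 sedentary arrays, at 7.76 and 9.43 in ERRα-null replicates 1 and 3 and at 10.82 and 10.93 in wild-type replicates 2 and 3. Other sedentary arrays stood apart by other transcripts. The log2 of the summed level of 6 seminal vesicle markers was 15.02 on ERRα-null replicate 1, against at most 6.27 on the other 11 arrays, and that array also had the highest B-cell sum (10.25). The sum of 8 liver markers was highest on sedentary wild type replicate 1 (14.13) and sedentary ERRα-null replicate 2 (12.74), with a lowest value of 8.83. All 10 fast-muscle markers were above the limit for testing, and their summed level, given as the log2 of the sum, ran from 16.29 to 16.41 over the 12 arrays. The sum of the 6 slow-muscle markers varied more, from 11.56 to 12.79.

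**Figure D1:**
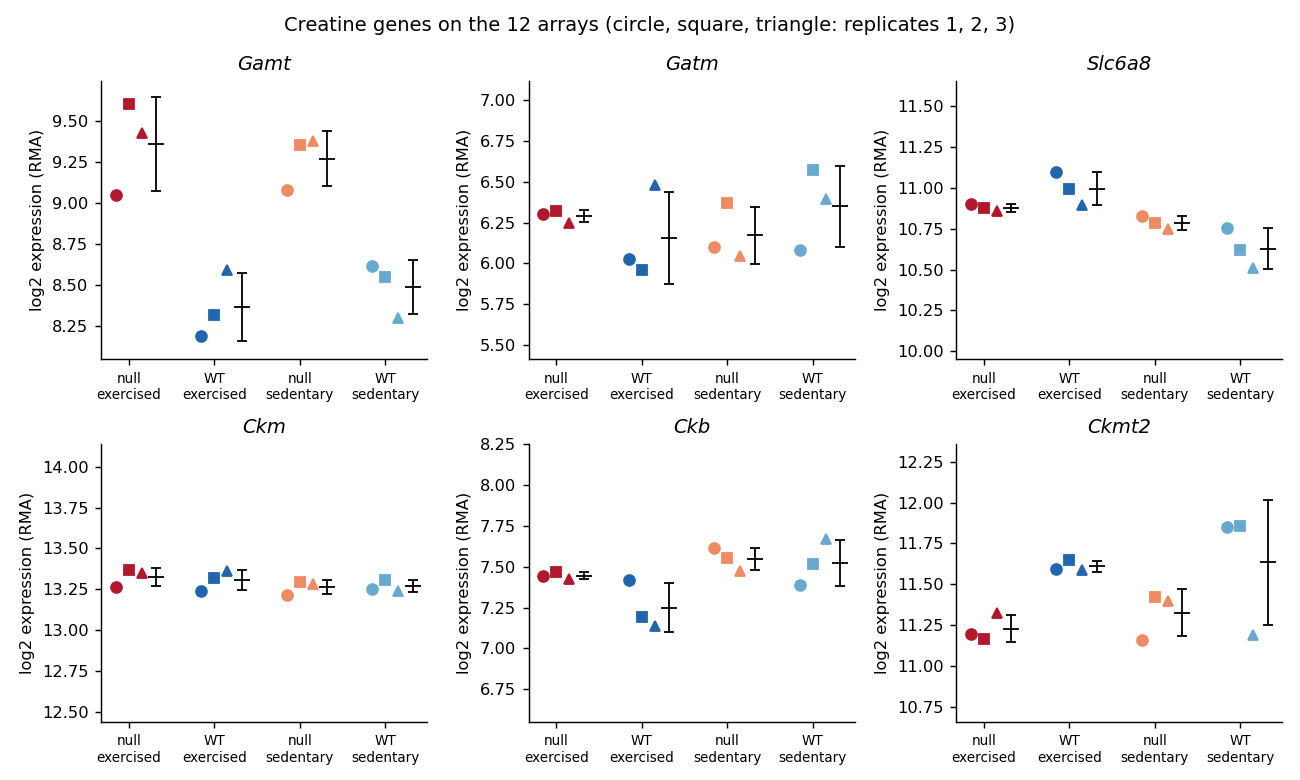
Each panel plots one creatine gene, with the log2 expression value on the vertical axis (each panel at its own level) and the 4 groups on the horizontal axis. Points are arrays, with the replicate number by symbol, and the black bar is the mean with its SD over 3 arrays. Gamt separates by genotype in both states, Slc6a8 is highest in exercised wild type, and Ckm spans only 0.152 over all 12 arrays.

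Gamt, which transfers the methyl group that completes creatine, was the member with the clearest dependence on genotype: all 6 ERRα-null arrays lay above all 6 wild-type arrays. After exercise it had 9.05, 9.60 and 9.43 in ERRα-null muscle, against 8.19, 8.32 and 8.59 in wild-type muscle (log2). At rest it had 9.08, 9.36 and 9.38 in ERRα-null muscle, against 8.61, 8.55 and 8.30 in wild-type muscle. Such a separation of 6 against 6 arrays, with the null arrays higher, was found for 0.496% of the 13308 genes.

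Gamt averaged 9.36 ± 0.28 in exercised ERRα-null and 8.37 ± 0.21 in exercised wild-type muscle (SD, n = 3 each), a difference of 0.99 ± 0.15 (SE), or 1.99-fold, with a limma adjusted p of 0.0227. It was the only one of the 6 members to pass for genotype after exercise, where 0.376% of all genes did, and it ranked at 14 by p. Since this call was known when the genes were listed, it is given as a description. At rest Gamt averaged 9.27 ± 0.17 in ERRα-null and 8.49 ± 0.17 in wild-type muscle (SD, n = 3 each), a difference of 0.78 ± 0.15 (SE), or 1.72-fold, which did not pass (limma adjusted p = 0.0902). None of the members passed for genotype at rest (0 of 6, where 0.0827% of all genes passed), and 2 of the 6 had an unadjusted p under 0.05 there, against 8.22% of all genes.

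Averaged over both states, Gamt was 1.85-fold higher in ERRα-null muscle (log2 0.89 ± 0.11 SE, limma adjusted p = 0.00288), the only member to pass where 1.43% of genes did. The call on the average held in 20 of 22 alternative settings and the difference had the same sign in all 22, from 0.79 to 0.97. The exercise change of Gamt was 0.09 (95% interval −0.24 to 0.42) in ERRα-null and −0.12 (−0.45 to 0.21) in wild-type muscle, and neither passed. With liver, fat and B-cell scores as covariates the change was −0.27 in ERRα-null, where its sign turned, and −0.59 in wild-type muscle, and neither passed (limma adjusted p = 0.634 and 0.324). The genotype difference with these covariates was 0.94 after exercise (limma adjusted p = 0.0363) and 0.63 at rest (limma adjusted p = 0.195). Gamt had the array order of the liver marker sum within sedentary wild type and another order within each other group. The part of liver transcripts was not tested. The direct test of whether the genotype difference itself differed between states gave 0.21 ± 0.21 (SE) with a limma adjusted p of 0.999.

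Within each exercised group, the arrays of female profile had the higher Gamt values, 9.60 and 9.43 against 9.05 in ERRα-null muscle and 8.59 against 8.19 and 8.32 in wild-type muscle. Without those 3 arrays the difference after exercise was 0.80 and no longer passed (limma adjusted p = 0.323), with 1 ERRα-null array left, and the averaged difference was 0.79 (limma adjusted p = 0.0581). None of the sedentary arrays had this profile. The call after exercise was also lost in the fit of the exercised arrays alone (limma adjusted p = 0.0822, and 0.0203 with the replicate number as a block, where the numbers pair these arrays), without the sedentary arrays with Ucp1 above 7 (limma adjusted p = 0.0828), and without wild-type replicate 1 or 2 or ERRα-null replicate 2 or 3 (limma adjusted p from 0.0704 to 0.0984).

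Slow-fibre transcripts also lay higher in ERRα-null muscle, with 6 of 6 markers above 0 in both states (median 0.16 after exercise and 0.55 at rest) and none past the test. Their summed level ran from 12.07 to 12.48 in exercised ERRα-null, from 11.71 to 12.55 in exercised wild-type, from 12.19 to 12.79 in sedentary ERRα-null and from 11.56 to 12.31 in sedentary wild-type muscle (log2 of the sum), so that, unlike Gamt, it overlapped between genotypes. Gamt and this sum had the same order of arrays within the exercised wild-type and sedentary ERRα-null groups and another order within the other 2 groups. The part of slow-fibre content in the Gamt difference was not tested. In whole muscle, fewer cells of a type and less RNA per cell cannot be told apart.

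Gatm, the amidinotransferase of the first step, did not follow Gamt. Its values were dim, with 6.30, 6.32 and 6.25 in exercised ERRα-null, 6.03, 5.96 and 6.48 in exercised wild-type, 6.10, 6.37 and 6.04 in sedentary ERRα-null and 6.08, 6.57 and 6.39 in sedentary wild-type muscle. The groups overlapped in all 4 comparisons, within a span of 0.616. The genotype difference was 0.13 (95% interval −0.20 to 0.47) after exercise and −0.18 (−0.51 to 0.16) at rest, and the exercise change was 0.12 (−0.22 to 0.46) in ERRα-null and −0.19 (−0.53 to 0.14) in wild-type muscle. None of these passed, with limma adjusted p from 0.596 to 0.885. The mean of Gatm lay only 0.918 above the limit for testing. Markers of the organs where Gatm is high were set against the same limit. Of the 4 kidney tubule markers on the array 1 was above it, and of the 4 exocrine pancreas markers 2 were.

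Slc6a8, the creatine transporter, was the member called for exercise, both in wild-type muscle and on average over genotypes. It had 11.10, 10.99 and 10.89 in exercised wild-type muscle, against 10.76, 10.62 and 10.51 in sedentary wild-type muscle. In ERRα-null muscle it had 10.90, 10.88 and 10.86 after exercise, against 10.83, 10.78 and 10.75 at rest. Exercised arrays lay above sedentary ones without overlap in both genotypes, a separation in this direction that 10% of genes showed in wild-type and 8.99% in ERRα-null muscle.

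The rise of Slc6a8 in wild-type muscle was 0.37 ± 0.07 (SE), or 1.29-fold (limma adjusted p = 0.0165), and it was the only member among the 3.43% of genes that passed for exercise in wild-type muscle. In ERRα-null muscle the change was 0.09 (95% interval −0.06 to 0.25, limma adjusted p = 0.626), and no member passed there (0 of 6, where 0.639% of genes did and 13.1% had an unadjusted p under 0.05, against 0 members). Averaged over genotypes it was 0.23 ± 0.05 (SE, limma adjusted p = 0.0191), again the only member called, where 6.57% of genes were. The changes in the 2 genotypes were not shown to differ: the interaction was −0.27 ± 0.10 (SE), with an unadjusted limma p of 0.0199 and an adjusted p of 0.948. No member passed for the interaction, where 0.00751% of genes did and 5.12% had an unadjusted p under 0.05, as Slc6a8 alone among the members had.

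The order of the 4 group means of Slc6a8 was exercised wild type (10.99 ± 0.10), exercised ERRα-null (10.88 ± 0.02), sedentary ERRα-null (10.79 ± 0.04) and sedentary wild type (10.63 ± 0.12) (SD, n = 3 each). The ERRα-null groups thus stood between the wild-type groups, and neighbouring groups did not differ beyond the test's threshold. The genotype difference was −0.12 (95% interval −0.27 to 0.04) after exercise, where exercised wild type replicate 3 lay below the highest ERRα-null array. It was 0.16 (0.00 to 0.31) at rest, where sedentary wild type replicate 1 lay above the lowest ERRα-null array.

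The Slc6a8 values of sedentary wild-type muscle moved with brown fat transcripts. The summed level of the 4 brown fat markers, all on the array, ran from 7.24 to 7.84 in exercised wild-type and from 7.52 to 11.41 in sedentary wild-type muscle (log2 of the sum), and the sedentary wild-type arrays with sums of 11.24 and 11.41 were those with Slc6a8 at 10.62 and 10.51. The third, with a sum of 7.52 and Ucp1 at 4.67, had Slc6a8 at 10.76, still below all exercised wild-type arrays. Slc6a8 also fell with replicate number in the exercised groups, where the sums were at most 7.94. In sedentary ERRα-null muscle, replicate 2 had the lowest sum (7.41) and the middle Slc6a8 value (10.78). The part of brown fat in the Slc6a8 values was not tested. Without the 4 sedentary arrays with Ucp1 above 7, which leaves 1 sedentary array per genotype, the wild-type rise was 0.24 and did not pass (limma adjusted p = 0.441). With liver, fat and B-cell scores as covariates it was 0.52 (limma adjusted p = 0.0749).

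The call for Slc6a8 in wild-type muscle was further lost without the arrays of female profile (0.42, limma adjusted p = 0.0545), without sedentary wild type replicate 2 or 3 or exercised wild type replicate 1 (0.31 to 0.36, limma adjusted p from 0.0604 to 0.0656), and in the fit of the wild-type arrays alone (limma adjusted p = 0.0995). The gene is X-linked, and the arrays of female profile had the lowest Slc6a8 values of their exercised groups, 10.88 and 10.86 in ERRα-null and 10.89 in wild-type muscle. The values also fell from replicate 1 to 2 to 3 in all 4 groups, including the sedentary groups, where no array had that profile. The part of sex in these values was not tested. The exercise difference in wild-type muscle was above 0 in all 18 alternatives.

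**Figure D2:**
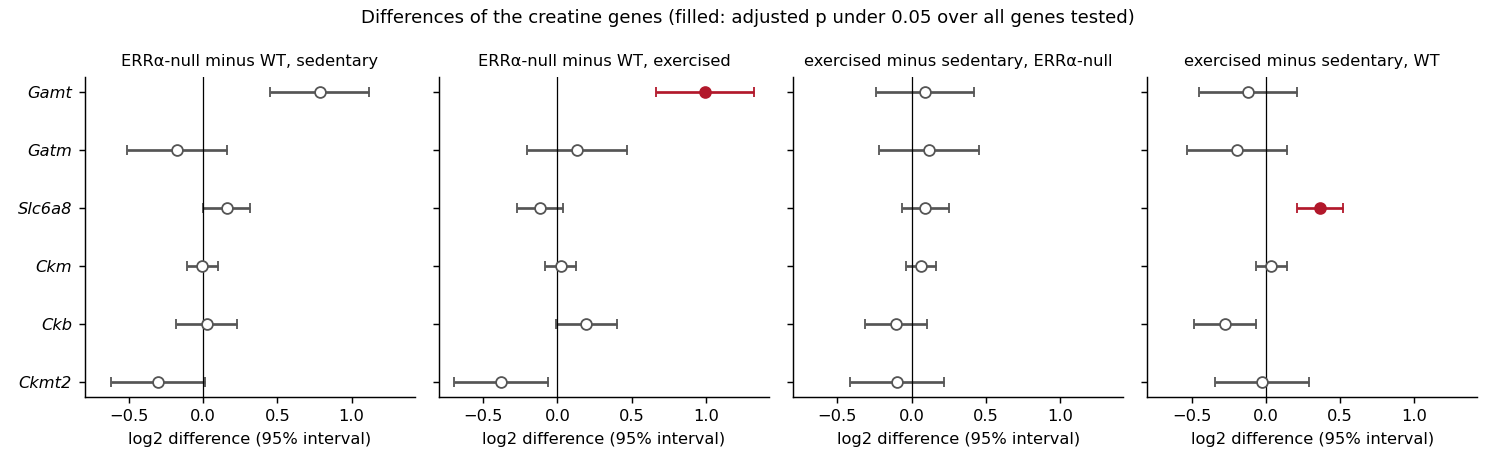
The 4 panels give the log2 difference of each creatine gene (horizontal axis, with its 95% interval from the model) for ERRα-null minus wild type in sedentary and in exercised mice, and for exercised minus sedentary in ERRα-null and in wild-type mice. Filled red points passed at an adjusted p under 0.05 over all genes tested, namely Gamt for genotype after exercise and Slc6a8 for exercise in wild type.

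Ckmt2, the mitochondrial creatine kinase of muscle, lay lower in ERRα-null muscle in both states without passing the test. After exercise it had 11.20, 11.16 and 11.32 in ERRα-null muscle, against 11.59, 11.65 and 11.59 in wild-type muscle, and the groups did not overlap, as for 9.31% of genes in this direction. At rest it had 11.16, 11.42 and 11.40 in ERRα-null muscle, against 11.85, 11.86 and 11.19 in wild-type muscle. One sedentary wild-type array, replicate 3, lay within the ERRα-null range, and the other 2 were the highest of all 12 arrays.

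The genotype difference of Ckmt2 was −0.38 ± 0.15 (SE) after exercise, or 0.768-fold (limma adjusted p = 0.365), and −0.31 ± 0.15 at rest, or 0.808-fold (limma adjusted p = 0.630). The average over states was −0.34 ± 0.10 (SE, limma adjusted p = 0.149). Sedentary wild type replicate 3 decided that call: without it the averaged difference was −0.45 and passed (limma adjusted p = 0.00400), and the difference at rest was −0.53 (limma adjusted p = 0.0516). That array had the highest sum of brown fat markers (11.41), the highest of the adipocyte markers (11.90) and the lowest of the fast-muscle markers (16.29). Wild-type replicate 2 had a brown fat sum of 11.24 and Ckmt2 at 11.86. The part of these transcripts in the Ckmt2 value was not tested. Exercise changed Ckmt2 by −0.10 (95% interval −0.42 to 0.22) in ERRα-null and −0.02 (−0.34 to 0.29) in wild-type muscle, and neither passed. The wild-type value also rested on single sedentary arrays: it was −0.25 without replicate 3 (limma adjusted p = 0.205), 0.08 without replicate 1 and 0.09 without replicate 2.

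Ckm, the muscle creatine kinase, varied least among the members on the probeset used. Its values were 13.27, 13.37 and 13.35 in exercised ERRα-null, 13.24, 13.32 and 13.36 in exercised wild-type, 13.21, 13.29 and 13.28 in sedentary ERRα-null and 13.25, 13.31 and 13.24 in sedentary wild-type muscle. All 4 groups overlapped within a span of 0.152. The genotype difference was 0.02 (95% interval −0.08 to 0.13) after exercise and −0.01 (−0.11 to 0.10) at rest, and the exercise change was 0.06 (−0.04 to 0.17) in ERRα-null and 0.04 (−0.07 to 0.14) in wild-type muscle. Its SD within groups, 0.0499, was smaller than that of all but 0.789% of the genes tested, where the median was 0.140. The probeset used lies near the top of the array's range, where 0.0902% of the genes tested have a higher mean, and whether its signal was compressed there was not tested. Ckm was the only member with a second probeset of its own, which was not used: it ran from 8.41 to 8.87 over the 12 arrays, a wider span, with a mean of 8.58 and group means of 8.66 in exercised ERRα-null, 8.61 in exercised wild-type, 8.55 in sedentary ERRα-null and 8.50 in sedentary wild-type muscle.

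Ckb, the brain-type cytosolic kinase, was lowest in exercised wild-type muscle, with no difference that passed. It had 7.42, 7.19 and 7.14 in exercised wild-type muscle, against 7.39, 7.52 and 7.67 in sedentary wild-type muscle, a change of −0.28 (95% interval −0.48 to −0.07, limma adjusted p = 0.166), and replicate 1 of the exercised group overlapped. In ERRα-null muscle it had 7.44, 7.47 and 7.42 after exercise, against 7.61, 7.55 and 7.47 at rest, a change of −0.10 (−0.31 to 0.11, limma adjusted p = 0.696) without overlap, as for 10% of genes in this direction. The exercised ERRα-null arrays all lay above the exercised wild-type arrays, as for 6.64% of genes in this direction, with a difference of 0.20 ± 0.10 (SE, limma adjusted p = 0.526).

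Ckb is also expressed by smooth muscle and brown fat, and their markers moved with it in some groups and not in others. The summed level of the 6 smooth muscle markers, all on the array, ran from 11.70 to 11.79 in exercised ERRα-null and from 10.95 to 11.57 in exercised wild-type muscle, with 6 of 6 markers higher in ERRα-null and none past the test. Within exercised wild type, however, the array with the highest sum (replicate 3, 11.57) had the lowest Ckb value, and with exercise in ERRα-null muscle the median of the smooth muscle markers was 0.09 where Ckb was at −0.10. The highest Ckb value, 7.67, was on sedentary wild type replicate 3, which had the highest brown fat sum, while sedentary ERRα-null replicate 3, with the highest sum of its group (10.01), had the lowest Ckb value there (7.47). With liver, fat and B-cell scores as covariates the exercise change of Ckb was 0.04 in wild-type and 0.14 in ERRα-null muscle, so that its sign turned in both, and neither value passed (limma adjusted p = 0.931 and 0.690).

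**Figure D3:**
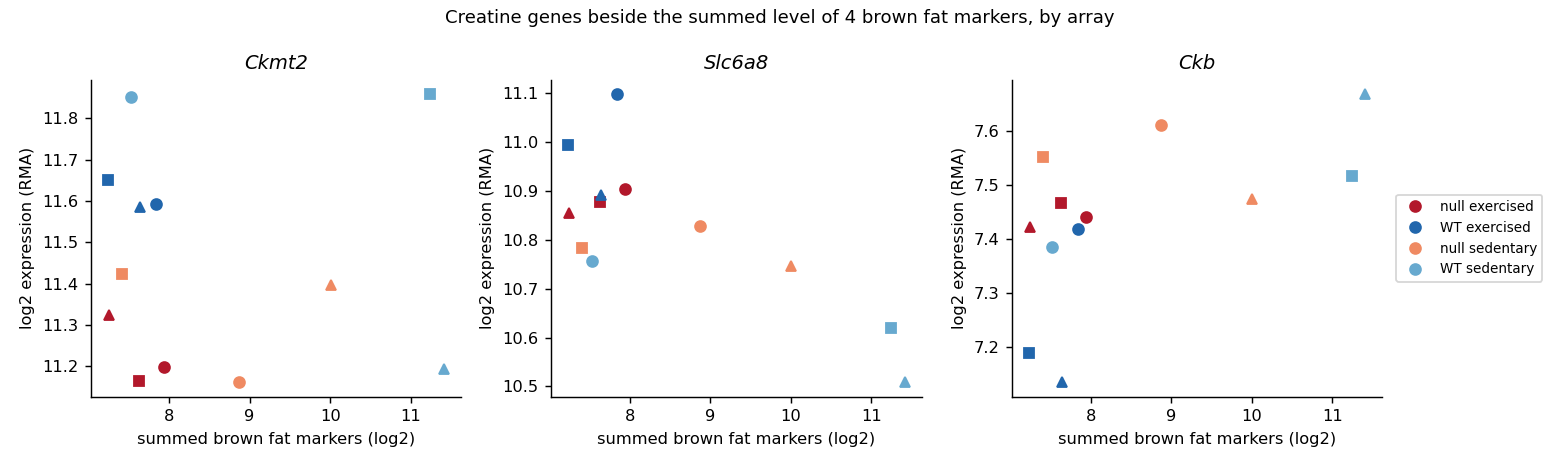
Each point is an array, placed by the log2 of the summed level of the 4 brown fat markers (horizontal axis) and the log2 expression of Ckmt2, Slc6a8 or Ckb (vertical axis), with groups by colour and replicate numbers by symbol. Sedentary wild type replicates 2 and 3 stand at the right with sums of 11.24 and 11.41. They have the lowest Slc6a8 values of the 12 arrays, and differ from each other in Ckmt2.

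The members did not share one pattern across the 12 arrays. The median difference over the 6 members was 0.08 for genotype after exercise, 0.01 at rest, 0.08 for exercise in ERRα-null and −0.07 for exercise in wild-type muscle, beside medians between −0.0114 and 0.00128 over all genes tested. The highest positive Pearson correlation between any 2 members was 0.385, between Ckm and Gatm (n = 12 arrays, which share 4 groups, so this is a description). Negative correlations between members were not ranked.

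Each member was set beside the 3 tested genes whose values followed it most closely, by Pearson correlation over the same 12 arrays and with predicted loci left out. Gamt was most like Lrp2bp (0.960), Hs6st2 (0.923), a heparan sulfate sulfotransferase, and Bcl2l13 (0.922), a mitochondrial outer membrane protein. Slc6a8 was most like the chemokine gene Ccl6 (0.950), the galactosyltransferase gene B4galt5 (0.933) and Cystm1 (0.929). Ckmt2 was most like 3 genes of mitochondrial metabolism, Cox7a2 of complex IV (0.962), Ndufv2 of complex I (0.949) and Got2, the mitochondrial aspartate aminotransferase (0.945).

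Lrp2bp differed between genotypes by 0.69 after exercise and 0.46 at rest, and Cox7a2 by −0.46 and −0.36. Ccl6 changed with exercise by 0.60 in ERRα-null and by 1.70 in wild-type muscle. For the members with no call the best companions were Phf5a (0.860), Apln (0.848) and Nr2f2 (0.815) for Gatm, Alg14 (0.928), Mrfap1 (0.922) and Tor1aip2 (0.916) for Ckm, and Atat1 (0.927), Pskh1 (0.911) and Ptpn14 (0.910) for Ckb.

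**Figure D4:**
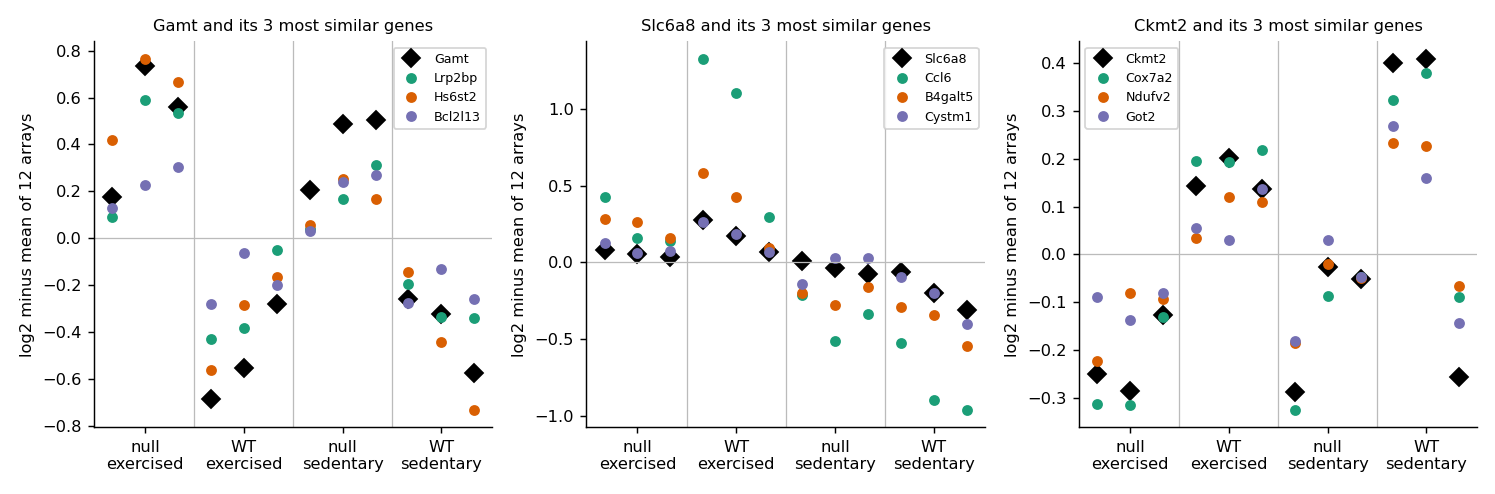
For Gamt, Slc6a8 and Ckmt2, the panels plot the log2 value minus the mean over the 12 arrays (vertical axis) for the gene itself (black diamonds) and its 3 most similar genes (circles), array by array and ordered by group. Gamt and its companions stand above 0 on the ERRα-null arrays and below 0 on the wild-type arrays. Ckmt2, Cox7a2, Ndufv2 and Got2 all dip on the third sedentary wild-type array.

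Lists of neighbouring functions place the members in their pathway. The 6 mitochondrial partners of Ckmt2 are the ADP/ATP carriers Slc25a4 and Slc25a5, the phosphate carrier Slc25a3 and the outer membrane channels Vdac1, Vdac2 and Vdac3. All 6 lay lower in ERRα-null muscle in both states, with a median of −0.25 after exercise and −0.16 at rest. After exercise 1 of the 6 passed, where 0.286% of all genes passed as lower in ERRα-null muscle. Slc25a5 averaged 9.63 ± 0.08 in exercised ERRα-null and 10.18 ± 0.18 in exercised wild-type muscle (SD, n = 3 each), a fall of 0.56 ± 0.10 (SE, limma adjusted p = 0.0483). Slc25a4, the main carrier of muscle, differed by −0.23 (limma adjusted p = 0.145), and none of the 6 passed at rest.

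The enzymes that supply arginine, glycine and methyl groups for creatine did not, as a list, lie higher in ERRα-null muscle as Gamt did. Of the 21 listed, 16 were tested, and 0 of them passed in any of the 7 comparisons. For genotype 8 lay above 0 and 8 below in each state, with medians of 0.00 after exercise and −0.01 at rest. Psph, Phgdh and Mtr were among those above 0 in both states, and Ahcyl1, Mat2b, Gnmt and Arg1 among those below. For exercise 13 of the 16 lay below 0 in ERRα-null and 11 in wild-type muscle. Mat2b, a subunit of the enzyme that makes the methyl donor S-adenosylmethionine, had the smallest p (averaged change −0.19 ± 0.06 SE, limma adjusted p = 0.0748). Larger values with wider errors came from 2 enzymes that are abundant in liver, the arginase gene Arg1 (−0.66 ± 0.34 SE, limma adjusted p = 0.285) and the glycine methyltransferase gene Gnmt (−0.47 ± 0.29 SE, limma adjusted p = 0.379). Liver markers moved the same way, with 7 of the 7 tested below 0 with exercise in both genotypes (medians −1.15 in ERRα-null and −1.06 in wild type) and none past the test, and their part in the list was not tested.

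Of the other small-molecule methyltransferases, 5 of 7 listed were tested. As3mt, the arsenite methyltransferase, averaged 8.07 ± 0.10 in exercised ERRα-null and 7.44 ± 0.02 in exercised wild-type muscle, and 8.26 ± 0.18 in sedentary ERRα-null and 7.77 ± 0.05 in sedentary wild-type muscle (SD, n = 3 each). It was higher by 0.56 ± 0.07 (SE, limma adjusted p = 0.00272) in ERRα-null muscle on average over states. It was the only 1 of the 5 to pass there, where 1.43% of all genes did. For genotype after exercise 1 of the 5 passed, where 0.376% of all genes did, and at rest 0 passed. Inmt, an indole and amine methyltransferase, fell with exercise in wild-type muscle to 0.520-fold (log2 −0.94 ± 0.23 SE, limma adjusted p = 0.0442), where 3.43% of all genes passed. Its value in ERRα-null muscle was 0.514-fold without passing (limma adjusted p = 0.0946). Averaged over genotypes, 2 of the 5 fell with exercise, where 3.43% of all genes did.

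Adenylate kinases, AMP deaminases and subunits of AMPK, the other system that buffers ATP and senses its loss, had 13 of 17 listed genes tested. None of the 13 passed for genotype in either state. With exercise, averaged over genotypes, Prkag2 (0.36 ± 0.09) and Ampd3 (0.68 ± 0.18) rose, where 3.14% of all genes rose, and Prkag3 (−0.51 ± 0.09) fell, where 3.43% fell (SE, limma adjusted p = 0.0311, 0.0468 and 0.00448). Prkag3 encodes the regulatory AMPK subunit of fast fibres, and Ampd3 an AMP deaminase. In wild-type muscle Prkag3 fell by 0.60 ± 0.12 (SE, limma adjusted p = 0.0214), where 3.43% of all genes passed. In ERRα-null muscle it averaged 9.55 after exercise and 9.97 at rest, lower as well but without passing.

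Of the myofibrillar anchors and ATP users that Ckm serves, 9 of 11 listed were tested, and none passed for genotype in either state or for exercise in either genotype. Myom2, an M-band protein of the structure to which muscle creatine kinase binds, rose by 0.17 ± 0.04 (SE, limma adjusted p = 0.0351) with exercise on average over genotypes. It was 1 of the 9 to rise there, where 3.14% of all genes did. Of the 3 listed phosphagen relatives only the taurine transporter gene Slc6a6, a close relative of Slc6a8, was bright enough to be tested, and it did not pass. It changed with exercise by −0.28 in wild-type muscle (limma adjusted p = 0.332), in the opposite direction to Slc6a8.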

How the data were processed

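The authors deposited log2 values for each array. Per the submitters' processing notes, RMA and the Affymetrix programs Expression Console and Transcriptome Analysis Console were used, with no versions, options or build stated there. Of the 41345 probesets, 23521 name 1 gene symbol, 1814 several and 16010 none, and 23328 of the first matched the RefSeq table of GRCm38.p6 by gene ID. Array medians ran from 5.15 to 5.26. Arrays have no read depth, and their number limits the precision.

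limma 3.58.1 in R 4.3.3 was fitted to the 13308 genes above a mean of 5.32 on all 12 arrays, with 4 group means, 8 residual degrees of freedom, an intensity trend and two-sided p-values adjusted by Benjamini-Hochberg over all genes, called under 0.05, in 7 comparisons. The model was tested on simulated data. Same-numbered arrays deviated together among exercised arrays (correlations from 0.174 to 0.312 over 3 pairs) and not for every pair elsewhere (from −0.278 to 0.347). Per the labels, replicates are biological. The members and lists were chosen with earlier results of these data known. Named genes are the 6 members, Esrra, up to 4 genes of a list with the smallest p, 3 similar genes per member and markers of other cell types. Alternatives are described at the end, and coordinates are given only for RefSeq windows.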

Additional observations from a re-analysis of the deposited data

Results flagged for a closer look

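By group means, Slc6a8 stood on opposite sides of wild type in the 2 states, while the arrays of the genotypes overlapped in both. Every exercised ERRα-null array lay below the mean of exercised wild-type muscle (10.86 to 10.90 against a mean of 10.99). Every sedentary ERRα-null array lay above the mean of sedentary wild-type muscle (10.75 to 10.83 against a mean of 10.63). The share of all genes with such an arrangement was not counted. The difference between the states, tested as the interaction, was −0.27 (SE 0.10) and did not pass (limma adjusted p = 0.948), so a difference was not shown. It kept its sign in all 22 alternatives, from −0.34 to −0.14, and passed in none of them.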

How the results depend on the processing

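There were 24 alternatives, of which the fit without the 4 sedentary arrays with Ucp1 above 7 was chosen after seeing the data. Of 828 values of the members under them, 53 changed sign, and 0 of these passed in either setting. For genotype at rest, exercise in ERRα-null muscle and the interaction, 0 members passed in every setting. Genotype after exercise had 1 member called and 0 in the fit of only the groups compared, without the arrays of female profile and without the Ucp1 arrays, and 0 to 1 when each replicate was left out. Exercise in wild type had 1 and then 0 in the fit of only the groups compared, with other-tissue scores, without the arrays of female profile and without the Ucp1 arrays, and 0 to 1 when each replicate was left out. The averaged genotype difference had 1 and then 0 without the arrays of female profile or the Ucp1 arrays, and 1 to 2 when each replicate was left out, the second being Ckmt2 without sedentary wild type replicate 3. Averaged exercise had 1 and then 0 with other-tissue scores, without the arrays of female profile and without the Ucp1 arrays, and 0 to 1 when each replicate was left out (0 without sedentary ERRα-null replicate 3, Slc6a8 at 0.22, limma adjusted p = 0.0506). Fewer arrays were fitted in these settings, except with the scores. The cause of the lost calls was not tested in any of them.

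With the replicate block over all arrays, Gamt after exercise had a limma adjusted p of 0.0422. On the exercised arrays alone it had 0.0203 with the block and 0.0822 without it, and the titles state no pairing of mice. Slc6a8 in wild type had 0.00754 with the block over all arrays and 0.0884 with the block on the wild-type arrays alone (0 members called), and the block changed no other call of a member. Counts over all genes moved more: from 11 to between 1 and 21 for genotype at rest, from 50 to between 2 and 73 after exercise, from 85 to between 0 and 99 for exercise in ERRα-null muscle, from 457 to between 62 and 472 in wild type, from 190 to between 5 and 251 for averaged genotype, from 874 to between 58 and 933 for averaged exercise and from 1 to between 0 and 6 for the interaction. The count of 0 for exercise in ERRα-null muscle came from limma with the block on those arrays alone.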
